A study of Mus musculus with 8 samples.

Results

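Adipocyte markers were read in whole hearts of SRC-2 KO and WT mice, to ask how much white or brown fat signal each heart sample carried and whether it differed by genotype. The markers were 10 genes given by name, Adipoq, Cfd, Plin1, Cidec, Cidea, Car3, Retn, Adrb3, Ucp1 and Lep, and 7 of them had a probeset, a group of short probes that reads a transcript, in the annotation used. Cfd, Plin1 and Adrb3 are not listed there and were not analysed here. The 7 were read among 18193 genes in all, each by the probeset with the highest mean log2 signal over the arrays. The arrays came from 4 SRC-2 KO and 4 WT male mice of a C57B/6Jx129Sv background, unstressed, fed ad lib and 10 to 12 weeks old by the labels, 1 heart per array. SRC-2 is the nuclear receptor coactivator encoded by Ncoa2, and the KO is germline, present in fat as in heart. The frozen hearts were homogenised for RNA, and no source used here says how much fat, vessel or atrial tissue was trimmed from them.

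White adipocytes store triglyceride in a single large lipid droplet and secrete hormones such as adiponectin and leptin. Brown adipocytes hold many small droplets and use uncoupling protein 1 in their mitochondria to release heat. Fat lies on the heart beneath the epicardium, in the grooves between the chambers and around the great vessels, and a heart removed whole carries a variable amount of it.

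The deposited values are linear signals, each array scaled by the authors to the same trimmed mean. The median signal of an array was 75.6 to 83.2 in KO hearts and 77.0 to 87.3 in WT hearts, and a signal under 50, which 36.9% to 40.7% of probesets had on any array, is called near background here. Of 31 measured genes that heart and fat are not known for, such as protamines and lens crystallins, 25 had a mean signal under 50, with Alb as the highest at 1991. Ncoa2, read first, had signals of 235 to 267 in KO hearts and 1660.3 to 2134 in WT hearts (log2 fold change −2.95 with a standard error of 0.12, adjusted p = 5.8e-04 in limma). The ventricular muscle markers were bright in both genotypes, with Myh6 at 97956 ± 12459 in KO hearts and 85010 ± 11313 in WT hearts (SD, n = 4 each). KO replicate 4 had a mean correlation of 0.975 with the other KO arrays, near the 0.975 to 0.980 of those, and of 0.976 with the WT arrays, against 0.961 to 0.974 for those. With 4 hearts per genotype the number of arrays limits precision. The limma p-values weigh the difference between genotypes against the spread between hearts of a genotype, with the variance drawn toward that of other genes.

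The fat hormone gene and the brown fat gene are shown by the sequence around their start sites. This is reference sequence, the same for every heart. Each window runs from 250 bases before to 50 bases after the RefSeq start site in GRCm38.p6, on the plus strand. Adipoq lies on chromosome 16 (chr16:23146286-23146585) and Ucp1 on chromosome 8 (chr8:83290098-83290397). Capitals mark matches, on either strand, to CCAAT in Adipoq, and to TGACG, the half-site of the cAMP response element, and AGGTCA, a nuclear receptor half-site, in Ucp1.
Adipoq: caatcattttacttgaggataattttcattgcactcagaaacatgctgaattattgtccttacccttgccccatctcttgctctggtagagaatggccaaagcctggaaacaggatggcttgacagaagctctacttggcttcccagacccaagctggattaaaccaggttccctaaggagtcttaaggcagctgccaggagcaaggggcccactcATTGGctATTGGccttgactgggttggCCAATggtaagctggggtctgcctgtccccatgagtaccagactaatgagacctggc
Ucp1: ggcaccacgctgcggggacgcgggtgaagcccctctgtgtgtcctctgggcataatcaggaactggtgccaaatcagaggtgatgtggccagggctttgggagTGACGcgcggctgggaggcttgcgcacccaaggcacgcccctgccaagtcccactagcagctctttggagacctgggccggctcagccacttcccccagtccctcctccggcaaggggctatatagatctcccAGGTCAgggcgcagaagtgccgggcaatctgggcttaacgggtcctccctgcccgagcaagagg
The Adipoq window holds CCAAT at 3 places, starting at positions −34, −27 and −7, and the Ucp1 window holds TGACG at −147 and AGGTCA at −14. Of 32851 promoter windows in the table, 37.4% hold CCAAT, 20.8% TGACG and 16.3% AGGTCA on either strand. TATAAA (13.6% of windows) and the C/EBP motif TTGCNNAA (10.8%) are in neither window. The matches are a description of the letters, and windows were read for 5 of the 7 measured markers.

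Adipoq encodes adiponectin, a hormone that adipocytes secrete. Its signal was 282, 686, 472 and 1412 in KO replicates 1 to 4, and 395, 646, 309 and 382 in WT replicates 1 to 4. KO replicate 4 was the highest of the 8 hearts, 2.06 times the next, and KO replicate 1 the lowest, so that the KO hearts spanned the WT hearts. The log2 fold change was 0.52 (standard error 0.49, adjusted p = 0.735), with a 95% interval from −0.63 to 1.68, or 0.645- to 3.21-fold. Without KO replicate 4 it was 0.11 (standard error 0.38, adjusted p = 0.923). In these bulk samples more adipocytes and more RNA per adipocyte cannot be told apart.

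Car3 encodes carbonic anhydrase 3, which is abundant in fat and in slow skeletal muscle. Its signal was 2625, 5579, 5767 and 12105 in KO replicates 1 to 4, and 2353, 9229, 3187 and 3605 in WT replicates 1 to 4. KO replicate 4 was again highest and WT replicate 2 came next, while KO replicate 1 and WT replicate 1 were low, so the genotypes overlapped. The log2 fold change was 0.51 (standard error 0.57, adjusted p = 0.776), and 0.14 (standard error 0.54, adjusted p = 0.933) without KO replicate 4. A second Car3 probeset had signals of 384, 731, 578 and 1131 in KO hearts and 405, 859, 391.8 and 329.9 in WT hearts. It placed KO replicate 4 first and WT replicate 2 next as well (log2 fold change 0.51, standard error 0.42, adjusted p = 0.807 over 45037 probesets). The remaining Car3 probesets were near background (mean log2 signals of 5.29 and 4.09).

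**Figure D1:**
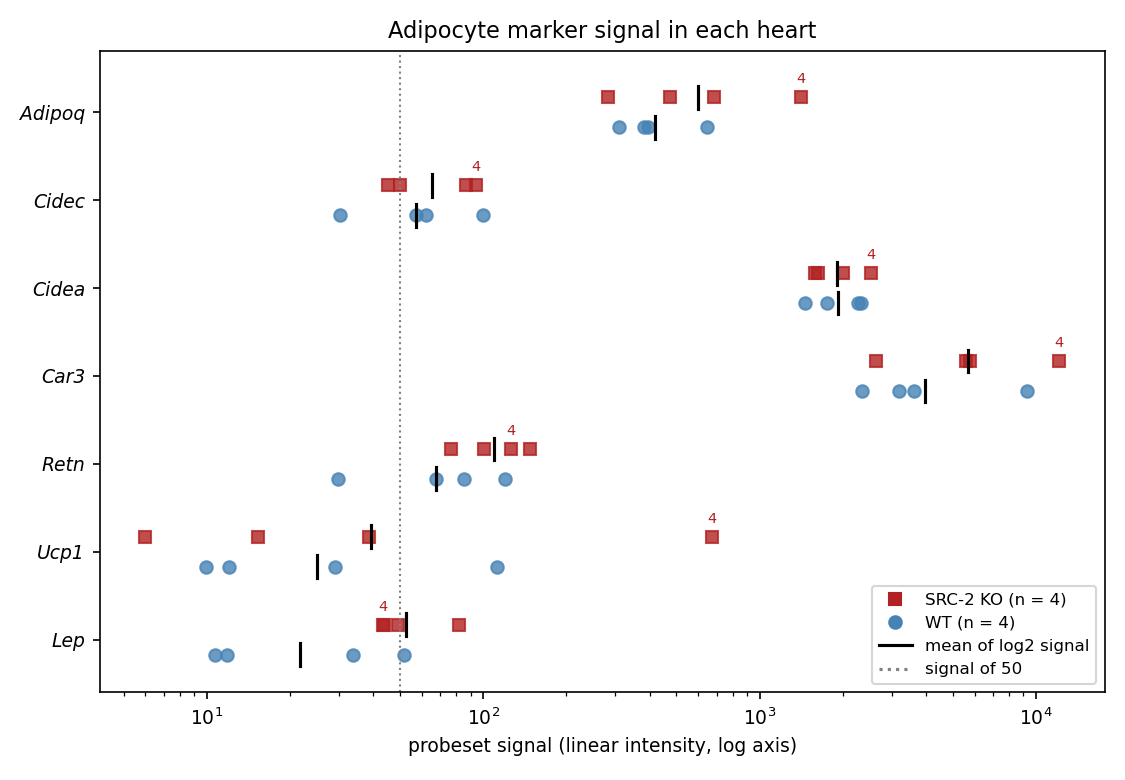
Signal of the brightest probeset (x axis, linear intensity on a log axis) of the 7 measured adipocyte markers (rows) in each heart. Squares are SRC-2 KO hearts (n = 4, with the number 4 above KO replicate 4), circles WT hearts (n = 4), black bars the means of log2 signal, and the dotted line a signal of 50; the genotypes overlap for every marker, and KO replicate 4 is highest for Adipoq, Cidea, Car3 and Ucp1.

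Ucp1 encodes uncoupling protein 1, the heat-producing protein of brown and beige adipocytes. Its signal was 15.3, 38.6, 6.00 and 672 in KO replicates 1 to 4, and 112, 9.96, 29.1 and 12.0 in WT replicates 1 to 4. Only KO replicate 4 and WT replicate 1 lay above 50, and KO replicate 4 was 5.99 times WT replicate 1. The log2 fold change was 0.65 (standard error 1.52, 95% interval −2.90 to 4.21, adjusted p = 0.898), and −0.71 (standard error 1.02, adjusted p = 0.809) without KO replicate 4, so 1 heart set its sign. Since 6 of the 8 signals were near background, the size of either value is uncertain.

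Cidea and Cidec encode lipid droplet proteins that move lipid between droplets in contact, Cidea mainly in brown and Cidec mainly in white adipocytes. Cidea had signals of 1623, 2003, 1582 and 2517 in KO replicates 1 to 4, and 2271, 1458, 2335 and 1754 in WT replicates 1 to 4. All 8 hearts were above a signal of 50 and within 1.73-fold of each other, and the genotypes overlapped. The log2 fold change of Cidea was −0.02 (standard error 0.22, 95% interval −0.53 to 0.50, adjusted p = 0.983). Cidec was dim, with signals of 49.8, 86.8, 45.1 and 93.9 in KO hearts and 30.3, 61.9, 100.2 and 57.1 in WT hearts. WT replicate 3 was its highest heart and WT replicate 1 its lowest (log2 fold change 0.19, standard error 0.41, adjusted p = 0.887).

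Retn and Lep encode resistin and leptin, hormones that white adipocytes of the mouse secrete. Retn had signals of 100.2, 76.4, 147 and 126 in KO replicates 1 to 4, and 67.5, 85.4, 29.9 and 119.9 in WT replicates 1 to 4. Its 2 highest hearts were KO replicates 3 and 4 and its lowest was WT replicate 3 (log2 fold change 0.69, standard error 0.44, adjusted p = 0.619). Lep had signals of 43.7, 49.2, 81.9 and 43.5 in KO hearts and 11.8, 51.9, 10.8 and 33.9 in WT hearts. Only KO replicate 3 and WT replicate 2 lay above 50, and WT replicates 1 and 3 were the lowest. Of the markers Lep had the smallest unadjusted p (0.0525, limma), with a log2 fold change of 1.27 (standard error 0.55, 95% interval −0.02 to 2.57, adjusted p = 0.502). With signals under 50 set to 50 the log2 fold change of Lep was 0.16.

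No adipocyte marker differed between SRC-2 KO and WT hearts past the threshold. Of the 7, 0 passed an adjusted p under 0.05 in limma without a variance trend (the untrended fit, which pulls all genes toward a common variance), where 0.022% of all genes were called, 0.0055% as higher and 0.0165% as lower in KO hearts. In the trended fit, whose common variance depends on the signal, 0 of 7 passed against 0.374% of all genes (0.121% higher and 0.253% lower). At an unadjusted p under 0.05 the count was 0 of 7 in both fits, against 10.0% and 12.6% of all genes, and it was 0 by a random variance model test as well. For none of the 7 did the KO values lie wholly above or below the WT values, as they did for 3.11% and 3.72% of all genes. The mean log2 signal was higher in KO hearts for 6 of the 7 markers, against 46.9% of all genes, and the median log2 fold change of the 7 was 0.52, against −0.03 over all genes. Without KO replicate 4 the median of the 7 was 0.11 and 5 of them had higher means in KO hearts, against −0.03 and 46.7% over all genes. The upper 95% bounds were a log2 of 1.68 for Adipoq, 1.84 for Car3 and 1.72 for Retn, so these arrays do not show the genotypes to be alike.

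**Figure D2:**
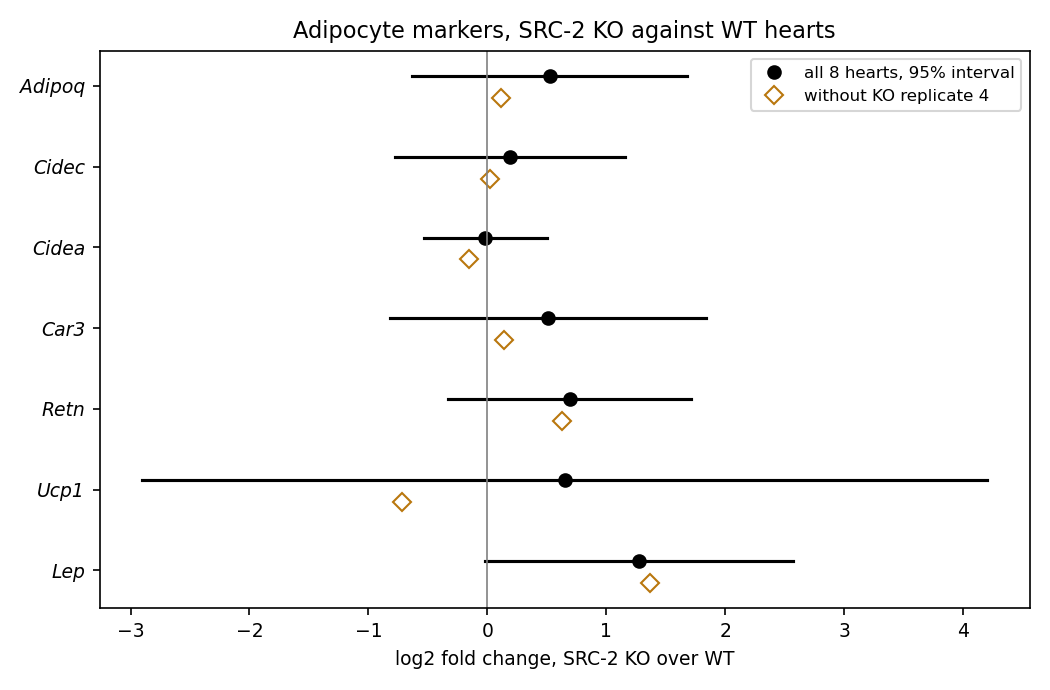
log2 fold change (x axis, SRC-2 KO over WT) of the 7 measured adipocyte markers (rows). Filled points with 95% intervals use all 8 hearts and open diamonds leave out KO replicate 4; every interval includes 0, and without that heart Adipoq is at 0.11 and Ucp1 at −0.71.

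The markers differed from each other in how unequal the hearts were. Among genes of similar signal, taken as 10 groups of equal size over all genes, the SD of log2 signal within a genotype was 0.76 for Adipoq, at the 99.3rd percentile, and 0.88 for Car3, at the 99.5th, where the medians of their groups were 0.22 and 0.14. For Ucp1 it was 2.37, the largest in its group, whose median was 1.14. Without KO replicate 4 the SD was 0.54 for Adipoq (97.5th percentile), 0.77 for Car3 (99.5th) and 1.498 for Ucp1 (81.8th). Cidea had an SD of 0.32, at the 93.2nd percentile. Cidec, Retn and Lep had SDs of 0.63, 0.67 and 0.85, at the 40.5th, 45.1st and 22.4th percentiles of their dim groups.

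Across the 8 hearts Adipoq and Car3 moved together. Their log2 signals had a Pearson r of 0.895 (exact permutation test, two-sided, p = 0.00196, adjusted p = 0.0118 over 6 relations) and a Spearman rho of 0.786 (exact permutation p = 0.0279, adjusted p = 0.168). With each genotype centred on its own mean, r was 0.883 (exact permutation within genotype, p = 0.0156, adjusted p = 0.0938), and it was 0.871 without KO replicates 4 and 2, the hearts farthest from the median of Adipoq. Ucp1 had an r of 0.610 with Adipoq (rho 0.286, exact permutation p = 0.110 and 0.501, adjusted p = 0.331 and 0.644), which was −0.349 without those hearts, so it rested on them. WT replicate 1, the other heart with Ucp1 above 50, had an Adipoq signal of 395, and WT replicate 2, next to KO replicate 4 in Car3, had a Ucp1 signal of 9.96. Cidec, Cidea, Retn and Lep had an r of 0.423, 0.296, 0.387 and 0.411 and a rho of 0.262, 0.143, 0.286 and 0.429 with Adipoq. The lowest adjusted p among these was 0.401 for r and 0.644 for rho (exact permutation; unadjusted p from 0.302 and from 0.299), and without those hearts r was −0.155 for Cidec and −0.526 for Cidea.

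**Figure D3:**
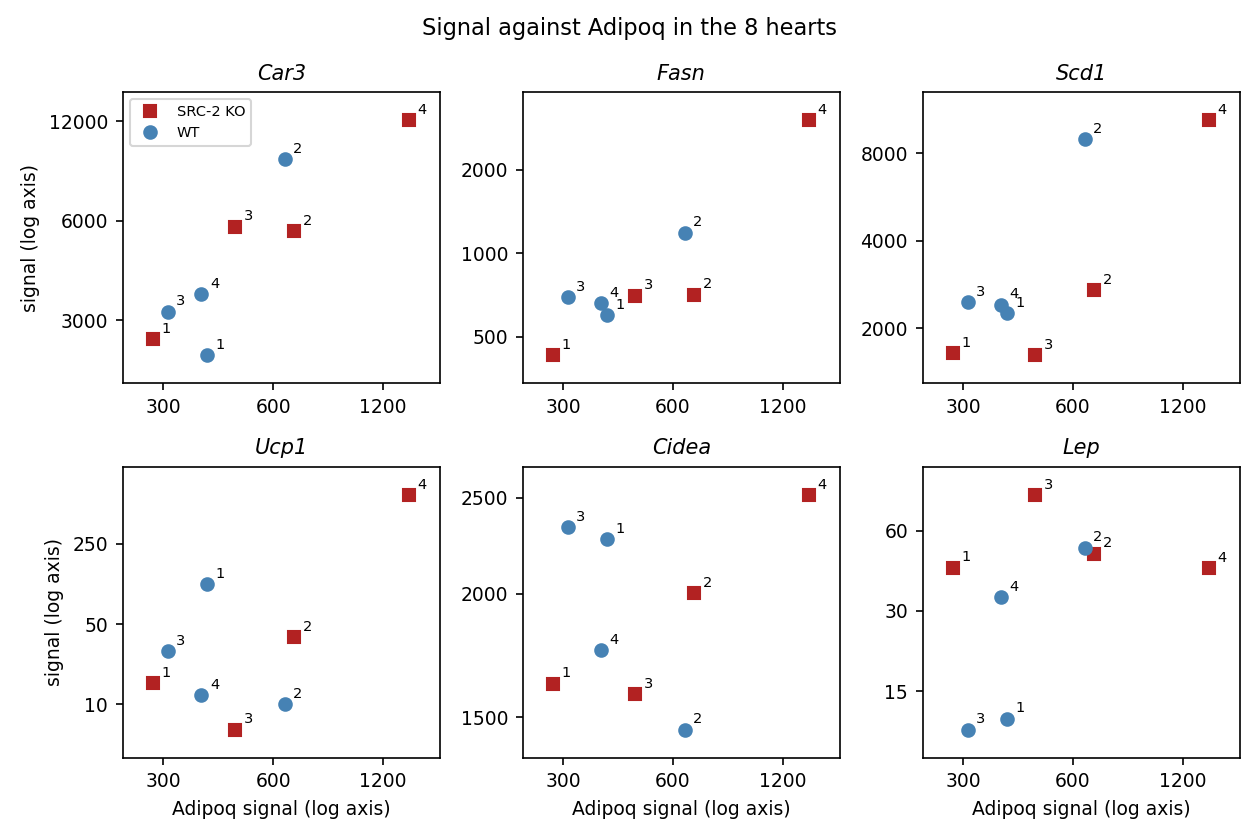
Signal of 6 genes (y axes, linear intensity on a log axis) against that of Adipoq (x axes, log axis) in the 8 hearts, with the replicate number beside each point. Squares are SRC-2 KO and circles WT hearts; Car3 and Fasn follow Adipoq, Scd1 is high in KO replicate 4 and WT replicate 2, and Ucp1 is highest in KO replicate 4.

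The genes whose pattern was most like that of Adipoq included enzymes that make fatty acids. Of 12600 genes with a mean signal of at least 50, ranked by Pearson r with Adipoq over the 8 hearts, the first was Acly, ATP citrate lyase, which supplies acetyl-CoA for fatty acid synthesis (r 0.928, and 0.784 without KO replicate 4). Acly had signals of 1736, 2438, 1792 and 4607 in KO hearts and 1979, 2831, 1997 and 2112 in WT hearts. Fasn, fatty acid synthase, was the fourth (r 0.912, and 0.732 without KO replicate 4) and Car3 the fifth (0.895 and 0.831). The others of the first 10 were St6galnac1, a sialyltransferase (r 0.927), Pogk (0.924), E2f3, a cell cycle transcription factor (0.895), AU021092 (0.876), Setd7, a lysine methyltransferase (0.873), Cdkn2c, a cell cycle inhibitor (0.870), and Prpf4b, a splicing kinase (0.868). Some of these varied little, such as St6galnac1 with signals of 105 to 141 in KO hearts and 107 to 125 in WT hearts. The values of r are descriptions over 8 hearts that share KO replicate 4 as the extreme point.

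Other genes that adipocytes use were measured as a list of 24, of which 11 had higher and 13 lower means in KO hearts (median log2 fold change −0.12), where 46.9% of all genes had higher means. In the untrended fit 0 of the 24 passed and 4 had an unadjusted p under 0.05, against 10.0% of all genes. Fabp4, the fatty acid binding protein that adipocytes, endothelium and macrophages all hold, was bright and even, at 39271 ± 4898 in KO hearts and 41661 ± 2840 in WT hearts (SD, n = 4 each; log2 fold change −0.09, adjusted p = 0.824). Pparg, the receptor that drives adipocyte formation, had signals of 156 to 262 in KO hearts and 194 to 320 in WT hearts (log2 fold change −0.20, adjusted p = 0.789). Aqp7, the glycerol channel of fat and heart, had 264 to 356 in KO hearts and 374 to 607 in WT hearts, with no overlap (log2 fold change −0.52, adjusted p = 0.441 untrended and 0.251 trended). Thrsp, a regulator of lipid synthesis in fat and liver, was the 1 gene of this list that rose in the trended fit.

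Thrsp had signals of 1939, 2283, 2556 and 3803 in KO replicates 1 to 4, and 1373, 1322, 1429 and 1234 in WT replicates 1 to 4. Every KO heart lay above every WT heart, and KO replicate 4 was the highest, as for Adipoq (log2 fold change 0.94, adjusted p = 0.317 untrended and 0.0366 trended). Without KO replicate 4 it was 0.75 (adjusted p = 0.201 untrended and 0.0109 trended). In the trended fit without WT replicate 2, 0 genes of this list passed, so the call of Thrsp was lost. Its r with Adipoq was 0.676, and 0.220 without that heart.

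Fasn and Scd1 were unequal among the hearts. Agpat2 and Dgat2, enzymes of triglyceride synthesis, had smaller SDs within a genotype, of 0.18 and 0.25. Among genes of similar signal these were at the 64.3rd and 90.2nd percentiles, so Dgat2 was still uneven for its signal. Fasn had signals of 430.1, 711, 704 and 3012 in KO replicates 1 to 4, and 599, 1185, 695 and 661 in WT replicates 1 to 4. Scd1, stearoyl-CoA desaturase, had 1641, 2716, 1620.5 and 10381 in KO hearts and 2256, 8934, 2465 and 2417 in WT hearts. KO replicate 4 and WT replicate 2 were the 2 highest hearts for both, as they were for Car3. The log2 fold changes were 0.25 for Fasn and −0.17 for Scd1 (adjusted p = 0.900 and 0.949), and −0.33 and −0.78 without KO replicate 4 (adjusted p = 0.693 and 0.601). The SDs within a genotype of Fasn and Scd1 were 0.91 and 1.12, at the 99.6th and 99.7th percentiles of genes of similar signal, and 0.43 and 0.79 without KO replicate 4, at the 96.1st and 99.5th. Cdo1, cysteine dioxygenase, had 106, 345, 145 and 638 in KO hearts and 274, 522, 256 and 210.3 in WT hearts, the same pair being highest.

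KO replicate 4 was the highest of the 8 hearts for 7 of the 23 genes of this list with a mean signal of at least 50, namely Adig, Agpat2, Cdo1, Fasn, Gpd1, Scd1 and Thrsp, against 10.2% of all genes at that signal. The same heart was the lowest of the 8 for Lipe (245), Pck1 (23.3), Wfdc21 (97.2) and Pnpla3 (124), and for the dim Hcar1 (7.80). The mean log2 signal of the 23 was 8.38, 8.62, 8.61 and 9.002 in KO replicates 1 to 4, and 8.75, 8.86, 8.62 and 8.73 in WT replicates 1 to 4. KO replicate 4 was the highest and KO replicate 1 the lowest, the same extremes as for Adipoq. Adipoq had an r of 0.783 with this mean (exact permutation p = 0.0239, adjusted p = 0.295 over 17 lists; rho 0.667, exact permutation p = 0.0831, adjusted p = 0.935). With genotypes centred r was 0.969 (exact permutation within genotype, p = 0.00174, the smallest it can give, adjusted p = 0.0295). Uncentred and without KO replicates 4 and 2, r was 0.782 (exact permutation, adjusted p = 0.401). The 23 genes did not move as a whole, with r from −0.456 for Lipe and −0.405 for Pck1 to 0.912 for Fasn. Fabp4 and Pparg had an r of 0.015 and 0.045.

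**Figure D4:**
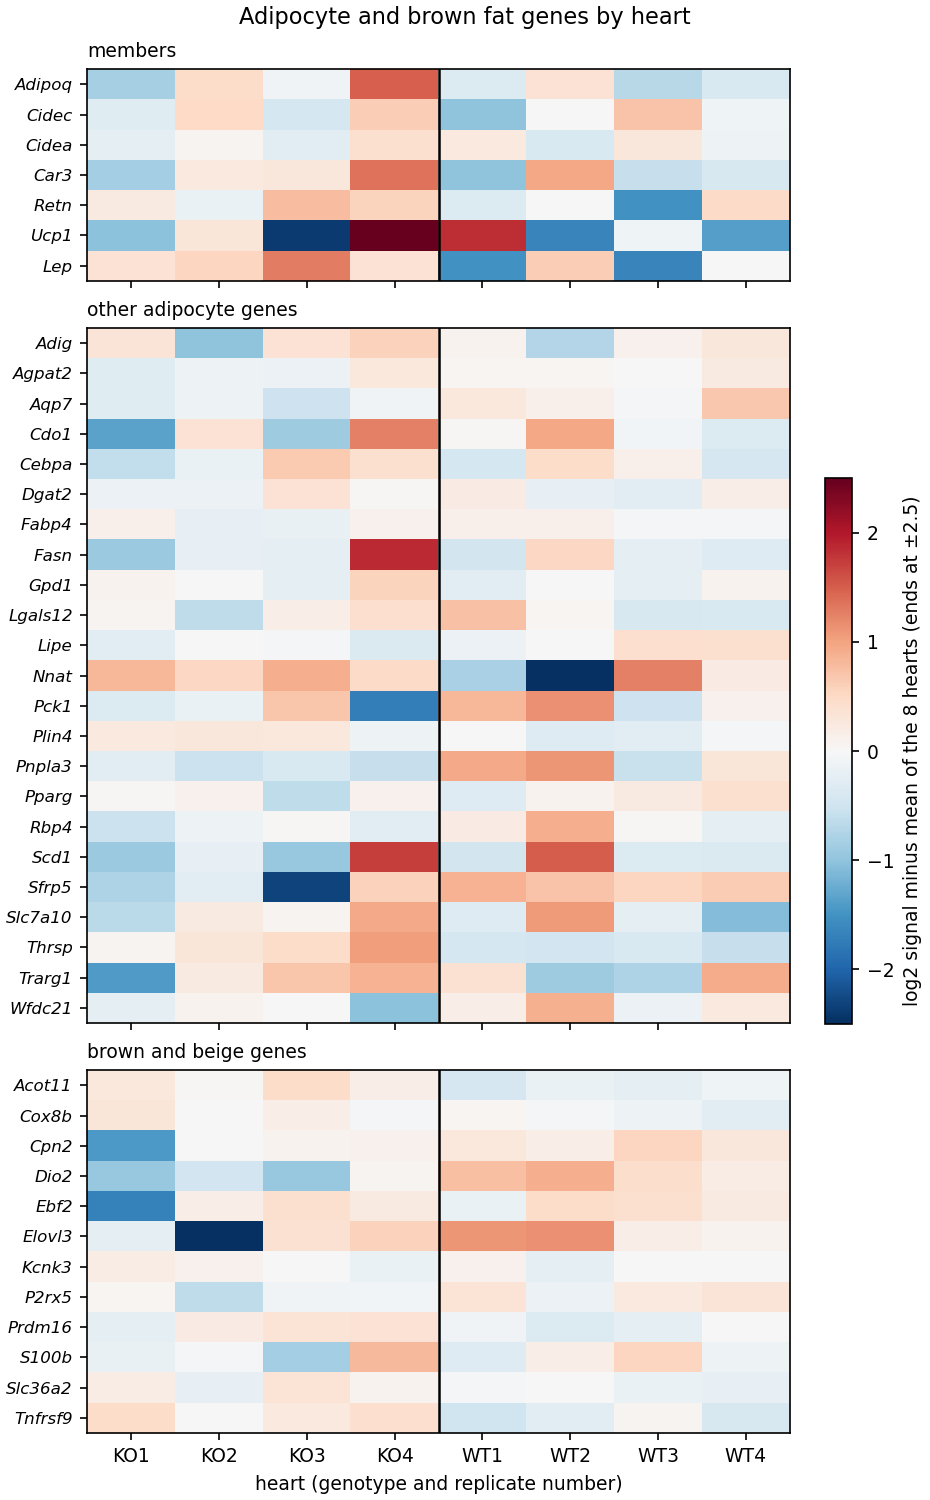
log2 signal minus the mean of the 8 hearts (colour, cut at ±2.5) for the 7 measured markers, 23 other adipocyte genes and 12 brown and beige genes with a mean signal of at least 50 (rows), in each heart (columns, 4 SRC-2 KO left of the line and 4 WT right of it). KO replicate 4 is raised for Adipoq, Car3, Ucp1, Fasn, Scd1 and Cdo1, and WT replicate 2 for Car3, Scd1 and Cdo1. KO replicate 4 is the lowest heart for Lipe, Pck1, Wfdc21 and Pnpla3. Among the brown and beige rows KO replicate 4 is highest for Prdm16 and S100b.

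Genes of brown and beige fat were set beside the high Ucp1 signal of KO replicate 4. Of 18 measured, 9 had higher and 9 lower means in KO hearts, the median log2 fold change being 0.00, and 0 passed in either fit (4 had an unadjusted p under 0.05 in the untrended fit, against 10.0% of all genes). KO replicate 4 was the highest heart for 2 of the 12 with a mean signal of at least 50, Prdm16 and S100b, against 10.2% of all genes at that signal. The mean log2 signal of the 12 was 8.44, 8.37, 8.75 and 8.92 in KO replicates 1 to 4, and 8.80, 8.84, 8.84 and 8.71 in WT replicates 1 to 4, with KO replicate 4 the highest heart and WT replicate 2 the next. The thermogenic fat genes Cox8b, Kcnk3, Acot11 and Slc36a2 were bright in every heart, such as Cox8b, a muscle and brown fat subunit of cytochrome oxidase, with signals of 43601 to 56192 in KO hearts and 37208 to 47054 in WT hearts. Among genes that cardiac muscle is not known for, Zic1, a transcription factor of classical brown fat, had 11.7 in KO replicate 4. Its signals were 1.38 to 29.6 in KO hearts and 26.3 to 76.7 in WT hearts (log2 fold change −2.64, adjusted p = 0.431 untrended and 0.234 trended). Lhx8 had 13.4 in KO replicate 4, within the range of 0.919 to 34.1 in WT hearts. Elovl3, a fatty acid elongase of brown fat, had 90.9 in that heart, within the range of 64.3 to 134 in WT hearts. Otop1 had 59.9 there, against at most 26.9 in the other KO hearts and 27.7 in WT hearts.

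Of the 18 brown and beige genes, 1, Acot11, lay wholly above in KO hearts, against 3.11% of all genes. Another 2, Dio2 and Cpn2, lay wholly below, against 3.72% of all genes. Cpn2 was dim, with 22.8 to 66.6 in KO hearts and 69.0 to 89.2 in WT hearts (log2 fold change −0.62, adjusted p = 0.595 untrended and 0.639 trended). Dio2, the deiodinase that activates thyroid hormone in brown fat, had signals of 92.9, 129, 93.2 and 188 in KO replicates 1 to 4, and 304, 336, 245 and 205 in WT replicates 1 to 4. All KO hearts lay below all WT hearts, with KO replicate 4 nearest to them. The log2 fold change was −1.15 (standard error 0.28, adjusted p = 0.334 untrended and 0.121 trended), and −1.37 without KO replicate 4 (adjusted p = 0.201 and 0.0341). Dio2 did not pass in the trended fit with all hearts, nor in that fit without WT replicate 2. Acot11, an acyl-CoA thioesterase of brown fat, had 1046 to 1412 in KO hearts and 774 to 959 in WT hearts (log2 fold change 0.46, adjusted p = 0.397 untrended and 0.124 trended).

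Genes of fat cell progenitors had mostly lower means in KO hearts. Of 9 measured, 2 had higher and 7 lower means in KO hearts (median log2 fold change −0.43, 0 passing in either fit), where 46.9% of all genes had higher means. In the untrended fit 4 had an unadjusted p under 0.05, against 10.0% of all genes, 3 of them lower and 1, Icam1, an adhesion molecule, higher in KO hearts (log2 fold change 0.55). Markers of other cell types also had lower means in KO hearts, 10 of 10 fibroblast genes (median log2 fold change −0.72), 10 of 10 endothelial genes (−0.23), 8 of 10 mesothelial genes (−0.52) and 9 of 10 macrophage genes (−0.37), and their part in the progenitor values was not tested. Pi16, a marker of fibroblasts and early adipose progenitors, had 1336 to 2300 in KO hearts and 2477 to 4089 in WT hearts (log2 fold change −0.83, adjusted p = 0.368 untrended and 0.0592 trended). The list mean had an r of 0.0284 with Adipoq (rho −0.0476, exact permutation p = 0.941 and 0.935, adjusted p = 0.966 and 0.935).

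Of 13 metabolic genes that fat and heart muscle share as PPAR targets, 10 had higher and 3 lower means in KO hearts (median log2 fold change 0.22), where 46.9% of all genes had higher means. In the trended fit 1 rose and 2 fell, against 0.121% and 0.253% of all genes. In the untrended fit 0 passed and 7 had an unadjusted p under 0.05, against 10.0% of all genes. The list mean ran the other way from the median, at 12.35 in KO hearts and 12.37 in WT hearts. Slc2a4, the insulin-responsive glucose transporter of fat and muscle, rose, with 8709 to 10055 in KO hearts and 6326 to 7501 in WT hearts (log2 fold change 0.49, adjusted p = 0.0368 trended and 0.309 untrended). Angptl4, a secreted inhibitor of lipoprotein lipase, fell, with 320 to 760.4 in KO hearts and 1336 to 3458 in WT hearts (log2 fold change −2.06, adjusted p = 0.0153 trended and 0.252 untrended). Pdk4, the kinase that holds pyruvate dehydrogenase inactive, fell as well, with 9005 to 18994 in KO hearts and 21627 to 29360.3 in WT hearts (log2 fold change −1.08, adjusted p = 0.0368 trended and 0.334 untrended). Of the 13 genes, 4 lay wholly above in KO hearts, Slc2a4 among them, against 3.11% of all genes. Another 2, Angptl4 and Pdk4, lay wholly below, against 3.72% of all genes. In the trended fit without WT replicate 2, 0 genes of this list passed. The list mean had an r of −0.741 with Adipoq (rho −0.429, exact permutation p = 0.0387 and 0.299, adjusted p = 0.295 and 0.935).

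Markers of other tissues that could come with the heart were set beside Adipoq. Smooth muscle genes were highest in KO replicate 4 for 5 of the 8 with a mean signal of at least 50, against 10.2% of all genes at that signal. The mean log2 signal of the 8 was 10.1, 10.7, 10.1 and 11.2 in KO replicates 1 to 4, and 10.3, 10.7, 10.7 and 10.8 in WT replicates 1 to 4. Myh11, the smooth muscle myosin, had 179.5, 344, 137 and 661 in KO hearts and 274, 519, 449 and 467 in WT hearts. Of the 10 smooth muscle genes measured, 5 had higher and 5 lower means in KO hearts. In the trended fit 1 of them rose, against 0.121% of all genes, and 0 passed in the untrended fit. Wholly above in KO hearts were 2, against 3.11% of all genes, and wholly below 0, against 3.72%. The r of Adipoq with the mean of the smooth muscle genes was 0.695 (rho 0.524, exact permutation p = 0.0521 and 0.197, adjusted p = 0.295 and 0.935), and r was 0.195 without KO replicates 4 and 2 and 0.797 with genotypes centred (exact permutation p = 0.0747, adjusted p = 0.423). Their part in the high adipocyte signal of KO replicate 4 was not tested. The atrial markers had lower means in KO hearts for all 13, where 46.9% of all genes had higher means. In the trended fit 4 of the 13 fell, against 0.253% of all genes, and 0 passed in the untrended fit. Wholly below in KO hearts were 7, against 3.72% of all genes. The atrial list means were 9.83 to 12.0 in KO hearts and 12.2 to 12.96 in WT hearts, with an r of −0.387 with Adipoq (rho −0.357, exact permutation p = 0.351 and 0.389, adjusted p = 0.966 and 0.935). The fibroblast markers had list means of 11.4 to 12.3 in KO hearts and 12.2 to 12.9 in WT hearts, and an r with Adipoq of 0.298 (rho 0.262, exact permutation p = 0.473 and 0.536, adjusted p = 0.966 and 0.935). With genotypes centred r was 0.854 for the fibroblast markers (exact permutation p = 0.0226, adjusted p = 0.192) and 0.579 for the endothelial markers (exact permutation p = 0.182, adjusted p = 0.620). None of the 17 lists had an adjusted p under 0.05 over all hearts for r, where 2 had an unadjusted p under 0.05 (exact permutation), the other adipocyte genes and the shared PPAR targets.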

How the data were processed

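RNA of 8 hearts was hybridised by the authors to Affymetrix Mouse 430 2.0 arrays. Expression Console, Partek and RMA are the tools in the submitters' processing notes. The deposited values are intensities on a linear scale, each array having the same mean after 2% of probesets were trimmed at each end, and their log2 was taken with no floor. RMA usually gives quantile-normalised log2 values, which these are not, so the algorithm behind the deposited signals is not settled by the sources used here. Of 45101 probesets, 34945 with 1 gene symbol were used, which gave 18193 genes, and 9211 were not listed in the annotation. KO was compared with WT in limma 3.58.1 (R 4.3.3), with Benjamini-Hochberg adjustment over all genes and a threshold of 0.05. List means took genes with a mean signal of at least 50. Correlations were tested by exact permutation of hearts.

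The markers and lists were chosen with earlier results of these data known. Named were the markers, Ncoa2, genes of the adipocyte and brown fat lists, up to 3 genes with the smallest p of other lists, and the 10 genes most like Adipoq; Fabp4, Slc2a4, Myh11, Myh6 and others were added to these with their values known. The 20 lists hold 246 entries, 226 measured. On simulated data for KO against WT over 18193 genes, 30 of 100 genes with a log2 change of 1 were called by the untrended fit and 42 by the trended one, and 59 and 58 of 100 with a change of 2. Alternatives covered the variance model, probeset choice, dim genes, a floor, scaling, a replicate block and leaving out each array, the last in the trended fit, and the spread and median without KO replicate 4, being added after the data were seen. Promoters are from RefSeq, GRCm38.p6. Figures used Python 3.11.15 and matplotlib 3.10.9.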

Additional observations from a re-analysis of the deposited data

How the results depend on the processing

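For the 7 markers the count that passed was 0 under every alternative run, including without each array in turn, and the lowest adjusted p of any marker was 0.357 (limma). At an unadjusted p under 0.05 the count was 0 to 2, the 1 under median centring and under quantile normalization being Lep. The number with a higher mean in KO hearts was 5 to 7 without each array. Over all genes 4 passed; 68 passed in the trended fit, 0 with the replicate block, 1 with the mean of all probesets, 3 with genes of mean signal at least 50, 2 with signals under 50 set to 50, and 1 to 320 without each array, the highest being the trended fit without KO replicate 4 and that fit without WT replicate 2 calling 5. Of the other lists' genes 0 passed, 11 in the trended fit and 0 to 23 without each array. In the trended fit without WT replicate 2 the count was 0, so Thrsp, Slc2a4, Angptl4, Pdk4 and Tnni2 did not pass there. Same-numbered KO and WT hearts had deviations correlated at 0.0635, −0.0802, −0.0189 and 0.108. The authors used littermates, and no source used here says whether the numbers pair them. These low values cannot exclude a pairing. With the block Ncoa2 had an adjusted p of 0.254 (limma), and with the mean of all its probesets a log2 fold change of −1.30 (adjusted p = 0.478). The block changed no call of a marker. Cidea had a log2 fold change of 0.045 with median centring, and without each array Cidea ranged from −0.15 to 0.078, Cidec from −0.11 to 0.46, Ucp1 from −0.71 to 1.56, Adipoq from 0.11 (no KO replicate 4) to 0.89 (no KO replicate 1), Car3 from 0.14 (no KO replicate 4) to 0.91 (no WT replicate 2) and Retn from 0.30 (no WT replicate 3) to 0.97 (no WT replicate 4). Car3 had 0.81 with the mean of all probesets. With signals under 50 set to 50, the log2 fold change was 0.16 for Lep, 0.051 for Cidec and 0.51 for Retn, the SD within a genotype was 1.39 for Ucp1 and 0.25 for Lep, and r with Adipoq was −0.0292 for Lep, −0.0911 for the progenitor list and −0.0384 for skeletal muscle, which was −0.00842 after quantile normalization. Without the 2 hearts farthest in Adipoq, r was 0.871 for Car3 (adjusted p = 0.125, exact permutation), −0.155 for Cidec, −0.526 for Cidea, −0.349 for Ucp1, 0.218 for mesothelial, −0.359 for thymus, 0.114 for lung, 0.257 for cartilage, 0.774 for macrophage and 0.109 for red blood cell markers. The causes of these differences were not tested. Ucp1, Lep and, in part, Cidec and Retn lie near background, which limits their fold changes.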

Other observations

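Other tissues' genes were also unequal among the hearts. Rag1, the recombinase of developing lymphocytes, had signals of 166, 3.56, 3.30 and 2.74 in KO replicates 1 to 4, and 2.13, 2.15, 52.1 and 1.39 in WT replicates 1 to 4. Cd3d, a chain of the T cell receptor complex, had 104, 10.0, 10.6 and 5.79 in KO hearts and 6.55, 5.94, 11.0 and 6.89 in WT hearts. KO replicate 1 was the highest heart for both, and it was the lowest for Adipoq. Of the 9 measured thymus and T cell genes, 8 had higher means in KO hearts, against 46.9% of all genes. In the untrended limma fit 0 passed, against 0.022% of all genes, and 0 had an unadjusted p under 0.05, against 10.0%. In the trended fit 0 passed, against 0.374%. Only 1 of the 9 had a mean signal of at least 50 (median of the 9, 15.9), so most of these directions rest on signals near background.

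Alb, the serum albumin gene of liver, had signals of 712, 2869, 1692 and 648 in KO replicates 1 to 4, and 4739, 7856, 2552 and 1161 in WT replicates 1 to 4 (log2 fold change −1.41, standard error 0.72, adjusted p = 0.554). WT replicate 2 was the highest, and KO replicate 4, the heart with the highest Adipoq, was the lowest. Tnni2, a fast skeletal muscle troponin, had 204, 58.4, 162 and 163 in KO hearts and 725, 755, 317 and 605 in WT hearts, with no overlap (adjusted p = 0.311 untrended and 0.0368 trended), while Acta1, skeletal actin, had 24883 in KO replicate 4 against 3230 to 9960 in the other KO hearts and 18974 to 28751 in WT hearts.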
